A study of Caenorhabditis elegans with 2 samples.

Results

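The 10 genes described here encode 5 cyclins (cye-1, cya-1, cyb-1, cyb-3 and cyd-1), 4 cyclin-dependent kinases (cdk-1, cdk-2, cdk-4 and cdk-9) and the kinase inhibitor CKI-1 of Caenorhabditis elegans, out of 19973 nuclear protein-coding genes. They were chosen by name, with earlier results of these data known. Their regions were then selected from the ranked peak list by 1 criterion, a summit lying between 1000 bp upstream of the most upstream annotated 5' end and the 3' end of the gene. That selection gave 43 of 59096 nuclear ranked regions. The signals and scores below are therefore a description of these genes and carry no test. The data are chromatin immunoprecipitation sequencing with an anti-GFP antibody in strain RW12240, whose hmg-20 gene carries a TY1, EGFP and 3xFLAG insertion made by CRISPR (allele st12240). Young adults were taken whole at 64 hours, after synchronization as starved L1 larvae, in 2 biological replicates of 1 group, with 1 technical replicate each. All tissues were mixed in each sample, so that binding in a few cells and weak binding in many cannot be told apart. Positions are on ce11 (WBcel235), and gene models are those of Ensembl release 115.

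HMG-20 binds DNA through an HMG box, and its mammalian relatives are known from complexes with the histone demethylase LSD1 and its partner CoREST. Cyclins bind and activate cyclin-dependent kinases (CDKs) at successive steps of the cell cycle. D-type cyclins act with CDK4 in G1, cyclin E with CDK2 at the entry into S phase, and the A- and B-type cyclins with CDK1 up to and through mitosis. In adult worms the germ line is the tissue with dividing cells, while the somatic lineages have completed their divisions. CDK-9 stands apart from the others, since it phosphorylates RNA polymerase II during transcription elongation rather than driving the cell cycle.

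HMG-20 regions that passed the authors' reproducibility threshold were found at cdk-9 and cye-1. Within the windows defined above, the other 8 genes held weaker regions alone. Past the threshold here means a summit in the conservative list, which was derived from both replicates and has a lowest score of 830, a score that corresponds to an irreproducible discovery rate (IDR) of 0.01. The conservative list holds 979 nuclear regions, while 1066 nuclear regions of the ranked list have a score of 830 or higher. The 2 genes made up 2 of 10, against 4.25% of all protein-coding genes by the same window rule. These windows grow with gene length, and their median was 3815 bp for the 10 genes and 3027 bp for all protein-coding genes. A conservative summit in the promoter, taken as 1000 bp upstream to 200 bp downstream of any annotated 5' end of the gene, was present at the same 2 genes, against 3.13% of all protein-coding genes. Of the 10 genes, cye-1 was the 1 with 2 conservative summits, which 0.32% of all protein-coding genes had. These shares give the background of the counts and do not show that the group differs from other genes.

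All 10 genes held at least 1 ranked region, but so did 74.6% of all protein-coding genes. A ranked summit lay in the promoter of 9 of the 10 genes, with cya-1 the exception, against 54.6% of all protein-coding genes. The number of regions per gene ran from 1 at cdk-4 to 9 at cyd-1, which with 12527 bp is also the longest of the 10 genes. Summed over the 10 windows the density was 0.802 regions per kb, against 0.638 over all protein-coding genes. Of the 43 regions, 10 had their summit upstream of the gene, 18 in an intron, 13 in a coding exon and 2 in a 3' UTR. The ranked list extends down to a lowest score of 27, and 28 of the 43 regions (65.1%) had that score, against 44.9% of all nuclear ranked regions. In the map of regions along the genes, the regions past the threshold stand near the start of cdk-9 and on both sides of the start of cye-1.

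**Figure D1:**
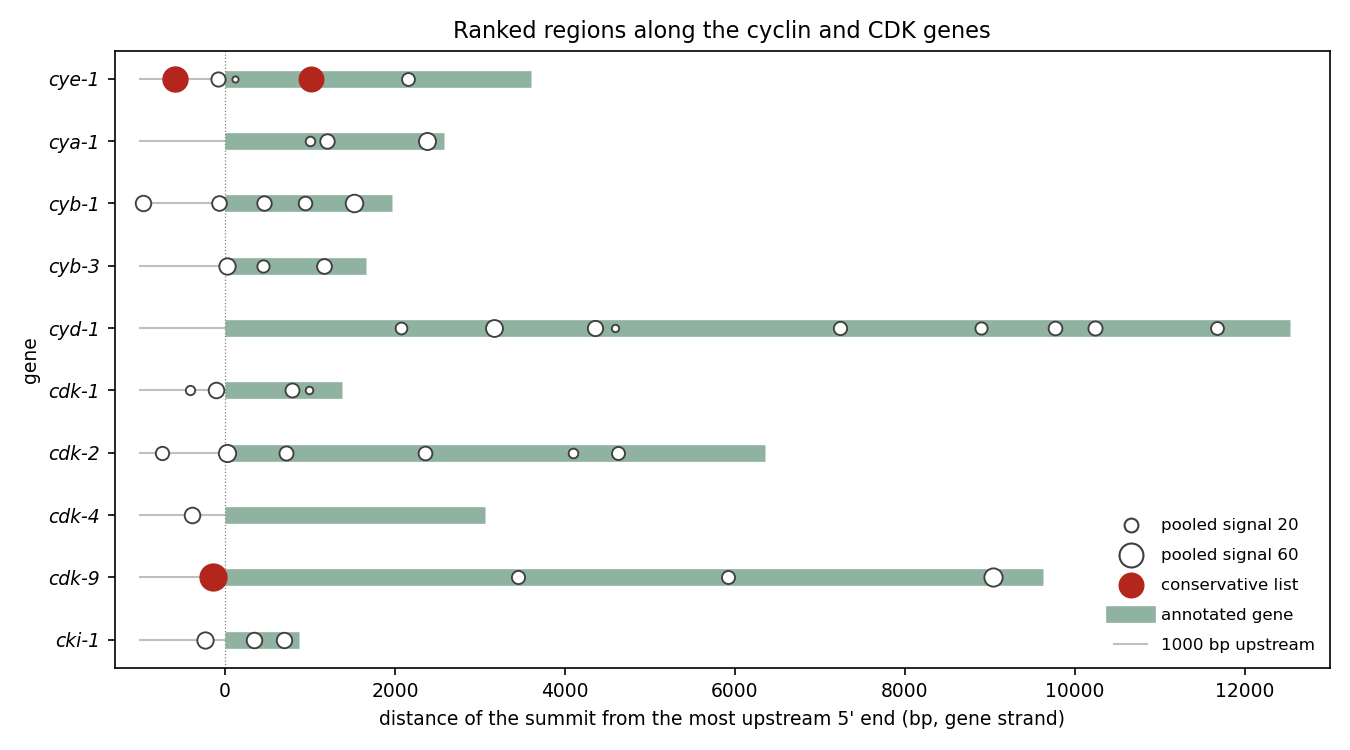
Position of each of the 43 ranked regions along the 10 genes, as the distance of the summit in bp from the most upstream 5' end on the gene's own strand, with the circle area proportional to the pooled signal. The 3 filled circles, 2 at cye-1 and 1 at cdk-9, are in the conservative list, and the 40 open circles are below its threshold.

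The pooled signal, the authors' peak height with both replicates combined, was higher at each of the 3 conservative regions than at any of the other 40 in these windows. It was 60.8 to 72.9 at the first and 4.05 to 34.9 at the others, with a median of 20.6. The median of all nuclear ranked regions was 22.7 and that of the nuclear conservative regions 76.8, so all 3 conservative regions of these genes were below the median of their list. By score the nearest regions on either side of the threshold were the upstream region of cye-1, with 851, and the strongest region of cyb-1, with 220. The scale of the signal is not stated in the files and the read depth is unknown.

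**Figure D2:**
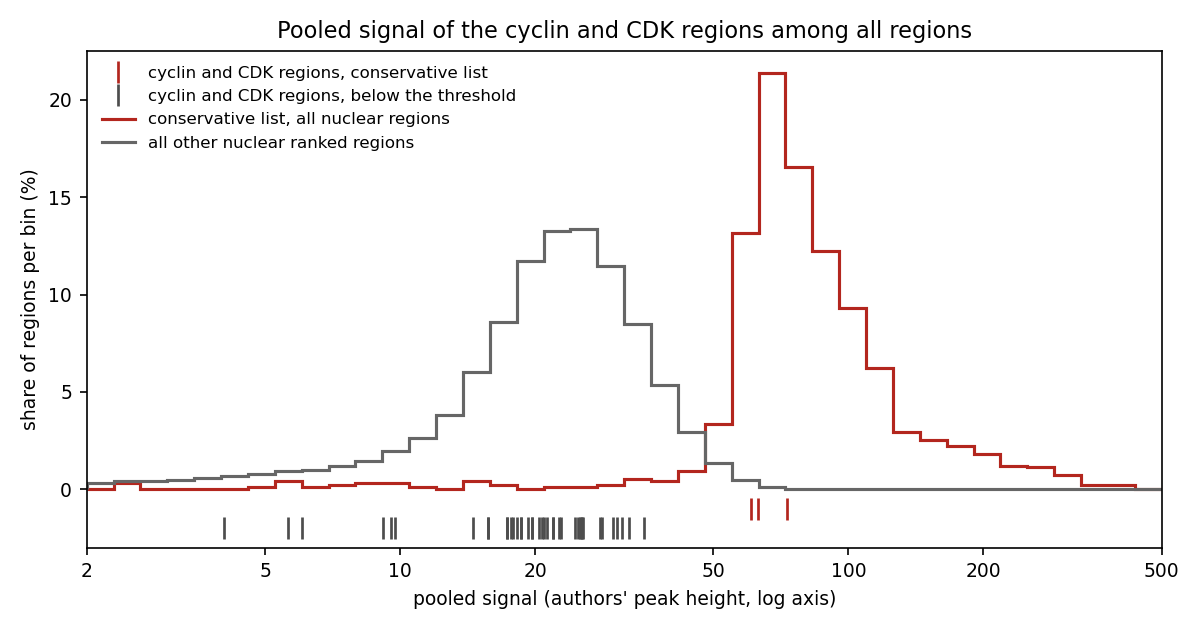
Pooled signal on a log axis, with marks below 0 for the single regions of the cyclin and CDK genes and lines for the share of regions per bin among the 979 nuclear conservative regions and among all other nuclear ranked regions. The 3 conservative regions of these genes sit between 60.8 and 72.9, at the low side of the conservative list. The other 40 sit within the range of the nuclear ranked regions outside that list.

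The G1/S cyclin gene cye-1 (WBGene00000871; chromosome I, 6780799 to 6784397, plus strand) encodes cyclin E. Its first conservative region (6780081 to 6780336) had its summit 590 bp upstream of the gene, with a pooled signal of 63.0 and a score of 851. The signal was 39.0 in replicate 1 and 24.1 in replicate 2, a mean of 31.6 ± 10.5 (SD, n = 2). Replicate 1 was the higher library there. The nearest 5' end was not that of cye-1 but that of pqn-21, a protein-coding gene on the minus strand, 58 bp away, so the summit lies between genes that run in opposite directions. The region overlapped no region of either replicate's own thresholded list. In the ranked list of replicate 1 it had a score of 757 and in that of replicate 2 a score of 33.

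The second conservative region of cye-1 (6781682 to 6781937) lay inside the gene, 1011 bp downstream of its start, in an intron. The summit fell on the tRNA gene WBGene00022955, which is on the same strand, 7 bp into it. Reads from a tRNA gene can map to near-identical copies elsewhere in the genome, and how the authors treated such reads is not given in the sources used here, so its part in the result was not tested. The pooled signal was 60.8 and the score 858. In the ranked list of replicate 1 the region had a score of 37 and in that of replicate 2 a score of 30. It overlapped no region of either replicate's own thresholded list. Replicate 1 gave 26.3 and replicate 2 gave 34.8, a mean of 30.6 ± 6.03 (SD, n = 2), so here replicate 2 was the higher library. The means of the cye-1 regions differed by less than the SD of either. The series has a second ranked and a second thresholded list derived from both replicates, and how they differ from the first is not stated. In the second ranked list the tRNA region had the same pooled signal but a score of 56, and it is not in the second thresholded list, while the upstream region had its score of 851 there too. The gene is past the threshold through the upstream region in both lists. In the conservative list, 259 of 979 nuclear summits (26.5%) had a tRNA, snoRNA or snRNA gene as the nearest 5' end. The share over all nuclear ranked regions is not given here. The remaining 3 regions of cye-1 had the lowest score of 27, with mean replicate signals of 8.33 to 10.2, and 2 of them share the same replicate peaks.

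The kinase partner of cyclin E is encoded by cdk-2 (WBGene00019362; chromosome I, 3410013 to 3416368, plus strand), which held 6 regions and none past the threshold. The strongest had its summit 25 bp inside the gene, in a coding exon, with a pooled signal of 31.2 and a score of 59. Its signal was 20.4 in replicate 1 and 9.08 in replicate 2, a mean of 14.7 ± 8.01 (SD, n = 2). The replicates were over 2 times apart, and the region overlapped nothing in the ranked list of replicate 2. The other 5 regions had the lowest score, with mean replicate signals of 6.72 to 10.5.

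The genes of the A- and B-type cyclins and their kinase CDK-1 had no conservative region within their windows. Beyond the windows, conservative summits lay 1759 bp upstream of cya-1 and 1702 and 1905 bp upstream of cdk-1. In cya-1, the cyclin A gene (WBGene00000863; chromosome III, 9106699 to 9109272, minus strand), all 3 regions were inside the gene, with scores of 58 and 59. Each had 9.51 to 9.55 in replicate 1 and 20.7 to 20.9 in replicate 2, so replicate 2 was over 2 times higher. The strongest by pooled signal (30.5) lay in the 3' UTR, with 9.51 in replicate 1 and 20.7 in replicate 2, a mean of 15.1 ± 7.94 (SD, n = 2). The other 2 regions, 200 bp apart in coding sequence, share the same peak of each replicate and are not separate measurements.

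The cyclin B gene cyb-1 (WBGene00000865; chromosome IV, 10735216 to 10737177, plus strand) held the region with the highest score below the threshold, 220. It lay in coding sequence 1519 bp downstream of the start, near the end of the gene, with a pooled signal of 32.4. Replicate 1 gave 16.2 and replicate 2 gave 22.5, a mean of 19.3 ± 4.45 (SD, n = 2). A summit 66 bp upstream of the gene had the lowest score and a mean of 11.6 ± 2.49 (SD, n = 2). A further summit 971 bp upstream fell inside the neighbouring gene orc-5, which encodes a subunit of the origin recognition complex.

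In cyb-3, the cyclin B3 gene (WBGene00000868; chromosome V, 15395696 to 15397353, plus strand), the region with the highest score, 143, lay in coding sequence 1165 bp downstream of the start. Its replicate signals were the closest of the best-scored regions, 15.2 in replicate 1 and 15.6 in replicate 2, a mean of 15.4 ± 0.288 (SD, n = 2). The region at the start of the gene, with its summit at 21 bp, had the higher pooled signal (28.2, against 22.8) but the lowest score. Replicate 1 gave 7.55 there and replicate 2 gave 18.2, so replicate 2 was over 2 times higher.

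The mitotic kinase gene cdk-1 (WBGene00000405; chromosome III, 9747472 to 9748852, plus strand) had 4 regions, all of the lowest score. The strongest had its summit 104 bp upstream of the gene, with a pooled signal of 25.45. Replicate 1 gave 7.01 and replicate 2 gave 19.6, a mean of 13.3 ± 8.93 (SD, n = 2). None of the 4 overlapped a region in the ranked list of replicate 1. Replicate 1 was nevertheless higher than replicate 2 at the regions other than the strongest. It gave 15.9 against 6.72 at 785 bp downstream, 10.4 against 7.27 at 407 bp upstream and 15.9 against 8.04 at 993 bp downstream. The 2 downstream regions share the same replicate 1 peak. A weaker summit 407 bp upstream fell inside iff-1, which encodes the translation factor eIF5A.

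The G1 pair cyd-1 and cdk-4 showed the same absence of conservative regions. In cyd-1, the cyclin D gene (WBGene00000870; chromosome II, 12980591 to 12993117, plus strand), 8 of the 9 regions lay in introns and 1 in a coding exon. The region with the highest score, 145, lay in the ncRNA gene Y38F1A.12 inside cyd-1, with 14.5 in replicate 1 and 17.97 in replicate 2, a mean of 16.2 ± 2.45 (SD, n = 2). The region with the highest mean, 16.5 ± 6.71 (SD, n = 2), was 400 bp upstream of the second annotated 5' end of the gene, with 11.8 in replicate 1 and 21.3 in replicate 2. No ranked region lay within 1000 bp upstream of the first annotated 5' end.

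At cdk-4 (WBGene00000406; chromosome X, 13515856 to 13518911, minus strand), whose product is the partner of cyclin D, the single region had its summit 387 bp upstream. Its pooled signal was 25.7 and its score the lowest. Replicate 1 gave 14.7 and replicate 2 gave 9.42, a mean of 12.1 ± 3.74 (SD, n = 2). The nearest 5' end was that of F18H3.1, 365 bp away.

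The inhibitor gene cki-1 (WBGene00000516; chromosome II, 7811240 to 7812105, plus strand) encodes a protein of the p27 family that restrains G1 kinases. Its 3 regions were spread over 866 bp of gene and the sequence just before it. The summit 239 bp upstream had a pooled signal of 27.9 and the lowest score, with 7.03 in replicate 1 and 16.9 in replicate 2, a mean of 11.98 ± 7.002 (SD, n = 2). The summit at 340 bp, in coding sequence, had a score of 72 and gave 11.19 in replicate 1 and 17.3 in replicate 2, a mean of 14.3 ± 4.35 (SD, n = 2).

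To show what lies under these weaker summits, the 100 bp around 4 of them are given from RefSeq (WBcel235), 5' to 3' on the strand of the gene. Upstream positions are cdk-1 (chrIII:9747318-9747417 on the plus strand) and cdk-4 (chrX:13519248-13519347 on the minus strand). Coding positions are cyb-3 (chrV:15396811-15396910 on the plus strand) and cya-1 (chrIII:9108024-9108123 on the minus strand). No summit in an intron or a 3' UTR is among the 4. Capitals mark the motifs searched, on either strand. These were TTTGAA, the cell cycle homology region bound by DREAM-type complexes, the E2F sites TTTCGCGC and TTTGGCGC, ACAAT, the core bound by SOX-type HMG boxes, GAGAG and CTGCGTC. No motif overlaps another here. Each of the 4 windows holds a motif, but those at the strongest regions of cyb-1 and cdk-2 hold none. The 4 therefore do not stand for all the weaker summits.
cdk-1: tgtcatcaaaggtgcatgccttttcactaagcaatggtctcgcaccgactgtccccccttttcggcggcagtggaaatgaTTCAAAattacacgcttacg
cdk-4: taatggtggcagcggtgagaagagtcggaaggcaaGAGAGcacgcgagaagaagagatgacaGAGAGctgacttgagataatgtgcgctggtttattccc
cyb-3: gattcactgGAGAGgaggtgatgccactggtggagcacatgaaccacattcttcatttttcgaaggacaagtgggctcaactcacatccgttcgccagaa
cya-1: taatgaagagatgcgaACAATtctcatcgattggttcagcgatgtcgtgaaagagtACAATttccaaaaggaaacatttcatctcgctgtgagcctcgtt

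Over all 43 regions the median GC content of the 100 bp windows was 44%, against 41% for all nuclear ranked regions and 50% for the nuclear conservative ones. The 3 conservative regions had 52% and 50% at cye-1 and 47% at cdk-9. TTTGAA was present at 10 of the 43 regions (23.3%), against 19.7% of ranked and 12.5% of conservative regions. ACAAT was present at 10 (23.3%), against 25.6% and 17.7%, and GAGAG at 13 (30.2%), against 17.8% and 31.6%. The E2F letters TTTCGCGC were in 1 region of cdk-2, against 0.575% and 1.74%, and TTTGGCGC in none of the 43, against 0.377% and 1.02%. CTGCGTC was in 1, against 1.60% and 6.03%. That 1 was the upstream region of cye-1, which also held GAGAG, as did the tRNA region. The window at cdk-9 held none of the motifs.

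The transcription kinase gene cdk-9 (WBGene00000410; chromosome I, 11323527 to 11333154, plus strand) had the strongest region in the 10 windows. A stronger region lay 1759 bp upstream of cya-1, outside its window. The cdk-9 region (11323259 to 11323514) had its summit 140 bp upstream of the gene and a pooled signal of 72.9. Its score was 927, or an IDR of 0.00583, and the IDR of the cye-1 regions was 0.00888 and 0.00855. Replicate 1 gave 47.9 and replicate 2 gave 24.6, a mean of 36.3 ± 16.5 (SD, n = 2). Replicate 1 was again the higher library. The promoter is shared with hxk-2, a hexokinase gene on the minus strand whose 5' end is 277 bp away. Promoters shared by protein-coding genes on opposite strands held 138 of the 979 nuclear conservative summits (14.1%), again without a share over all nuclear ranked regions beside it. The cdk-9 region was in the thresholded list of replicate 1, where its score in the ranked list was 1000, and overlapped no region in the ranked list of replicate 2.

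The cdk-9 gene also held 3 intronic regions below the threshold. The one 9033 bp from the start had the highest pooled signal of all 40 regions below the threshold (34.9). It had 28.3 in replicate 1 and 8.33 in replicate 2, a mean of 18.3 ± 14.1 (SD, n = 2), and a score of 54. Its replicates were the furthest apart of the 43 regions in absolute terms after those of the promoter region.

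Among the 10 genes, the order by highest mean replicate signal within the windows was cdk-9 (36.3), cye-1 (31.6), cyb-1 (19.3), cyd-1 (16.5), cyb-3 (15.4), cya-1 (15.2), cdk-2 (14.7), cki-1 (14.3), cdk-1 (13.3) and cdk-4 (12.1). Every neighbouring pair in this order overlapped within 1 SD, so by this measure no neighbours are set apart with 2 replicates. The same 2 replicates gave every value, and the overlap leaves that pairing out. Both replicates gave the same order for cdk-9 over cye-1, cye-1 over cyb-1 and cyb-1 over cyd-1. In all later pairs the replicates gave opposite orders. The order was not tested. The strongest pooled signal of cdk-9 was exceeded by 3.57% of the 14890 protein-coding genes with a ranked region and that of cye-1 by 5.14%. The corresponding shares for the other 8 genes were 43.6% at cyb-1 to 70.3% at cdk-1, from near the middle to the lower part of all such genes.

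**Figure D3:**
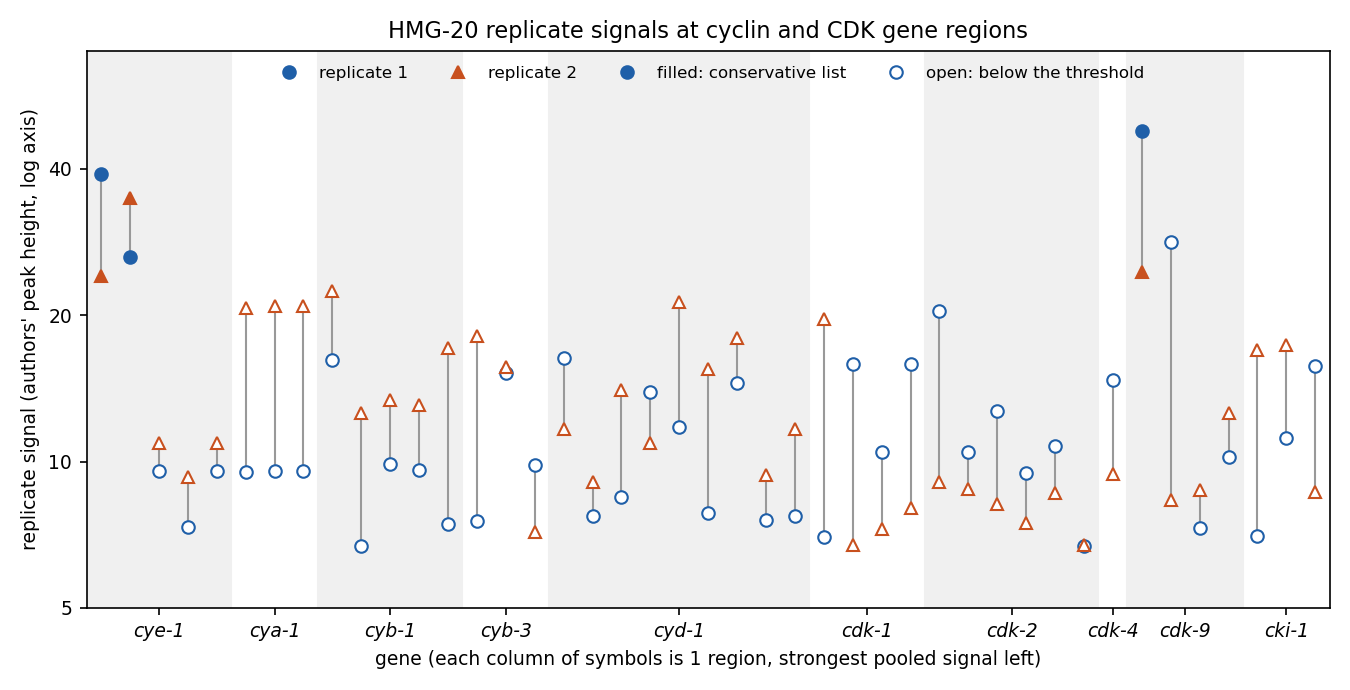
Signal of replicate 1 (circles) and replicate 2 (triangles) at each of the 43 regions, on a log axis, grouped by gene and ordered within a gene by pooled signal. Filled symbols are the 3 conservative regions, and the grey line joins the replicates of a region. At cye-1 and cdk-9 both replicates of each filled region are above 24, while at the other regions the highest values are 28.3 in replicate 1 and 22.5 in replicate 2.

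The replicates differed at the level of single genes. Replicate 1 was higher at 16 of the 43 regions (37.2%), against 53.0% of all nuclear ranked regions, and replicate 2 at the other 27. The signals were over 2 times apart at 10 of the 43 regions (23.3%), against 13.3% of all nuclear ranked regions. These counts take every region singly, although 8 of the 43 share a replicate peak with another region of the same gene, and 2 of the 10 are the cya-1 regions with the same replicate values. Of the 43 regions, 24 overlapped a region in replicate 1's own ranked list, 23 one in replicate 2's, 12 one in both and 8 one in neither. No share over all nuclear ranked regions is given beside these overlap counts, so they do not set the 43 regions apart. At cdk-1, 3 of the 4 regions overlapped one in replicate 2's list and 0 in replicate 1's. Among the 3, those with summits 785 and 993 bp downstream of the start overlapped the same replicate 2 region. Replicate 1 had the higher signal at both. Each replicate's own thresholded list was shorter than the conservative one, with 498 nuclear regions in replicate 1 and 448 in replicate 2. By these, 1 of the 10 genes (cdk-9) was past the threshold in replicate 1, against 2.29% of all protein-coding genes, and 0 in replicate 2, against 2.06%. At cye-1 neither thresholded list held a region. With 2000 bp in place of 1000 bp upstream the count was 4 of 10, against 5.34% of all protein-coding genes, since conservative summits lay 1759 bp upstream of cya-1 and 1702 and 1905 bp upstream of cdk-1.

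Other genes of the cell cycle machinery gave counts near the background. A list of 16 other cyclin and CDK genes included cyb-2.1, cyb-2.2, cdk-5, cdk-7, cdk-8 and cdk-12. Of these 16, 12 held a ranked region, against 74.6% of all protein-coding genes, and 0 had a conservative summit in the gene window. Of 11 CDK regulators, which include the cdc-25 phosphatases, the wee-1 kinases and cki-2, 0 had one. Of 20 genes for subunits of cell cycle ubiquitin ligases, 2 had one, and of 5 genes of the Rb and E2F pathway, 1. In all that is 3 of 52 genes, or 5.77%, against the 4.25% of all protein-coding genes given above. A ranked region lay in the window of 47 of the 52 genes. By list this was 12 of 16, 11 of 11, 19 of 20 and 5 of 5, beside the 74.6% of all protein-coding genes. The median of the strongest pooled signal in a gene's window was 36.5, 33.6, 36.6 and 31.7 in these 4 lists in the same order, against 30.7 over all protein-coding genes with a ranked region.

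The 3 genes were gfi-3, cul-4 and efl-1, each with its summit upstream and nearest to its own 5' end. At gfi-3, which encodes a subunit of the anaphase-promoting complex, the summit lay 138 bp upstream, with 49.6 in replicate 1 and 45.7 in replicate 2, a mean of 47.7 ± 2.76 (SD, n = 2). At cul-4, a cullin gene known for limiting DNA replication to once per cycle, it lay 232 bp upstream, with 36.5 in replicate 1 and 38.5 in replicate 2, a mean of 37.5 ± 1.42 (SD, n = 2). At efl-1, an E2F gene, it lay 171 bp upstream, with 41.1 in replicate 1 and 29.8 in replicate 2, a mean of 35.5 ± 7.98 (SD, n = 2). All 3 had the highest possible score of 1000, above the 927 of cdk-9, and gfi-3 had higher signals in both replicates than the cye-1 regions. The efl-1 region is not in the second thresholded list.

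The 100 bp around these summits are given as the sequence of regions past the threshold next to which the weaker cyclin and CDK windows can be read, 5' to 3' on the strand of the gene (RefSeq, WBcel235). They are gfi-3 at chrX:14480384-14480483 on the plus strand, cul-4 at chrII:7301819-7301918 on the plus strand and efl-1 at chrV:16965796-16965895 on the minus strand. Capitals mark the same motifs. GC content was 59% at gfi-3 and 50% at both cul-4 and efl-1.
gfi-3: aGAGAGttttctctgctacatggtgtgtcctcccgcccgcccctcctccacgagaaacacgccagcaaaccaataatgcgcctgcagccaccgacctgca
cul-4: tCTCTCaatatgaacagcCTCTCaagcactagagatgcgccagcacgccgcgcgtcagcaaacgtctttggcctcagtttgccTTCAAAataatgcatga
efl-1: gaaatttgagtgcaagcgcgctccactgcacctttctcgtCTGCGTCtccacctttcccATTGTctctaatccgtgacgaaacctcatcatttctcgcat
The gfi-3 window held GAGAG, that of cul-4 GAGAG as its reverse complement and TTTGAA as its reverse complement, and that of efl-1 CTGCGTC and ACAAT, the last as its reverse complement. A match is a description of the letters and not a binding site.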

How the data were processed

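HMG-20 chromatin immunoprecipitation data of 2 biological replicates were taken as deposited peak lists on ce11. Per the file descriptions deposited with the samples, the authors derived each list from the alignments and a control library. The peak caller is not given in the sources used here. The deposited score is a scaled IDR, the deposited signal is the authors' peak height, and the deposited −log10 columns hold the IDR. Signals of the single replicates come from the ranked list. Their first column was identical in position and height to regions in replicate 1's own list at 34785 of 59116 regions and to 0 in replicate 2's, and the second column to 34117 in replicate 2's and 0 in replicate 1's.

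The members, lists and tests were chosen with earlier results of these data known, and no test was made on the members. The members, each list gene with a conservative summit, and genes sharing a member's conservative summit are named. Regions were matched between lists by an overlap of at least 1 bp. The window step was tested on simulated data. No deposited column of per-sample values was left unmapped. Sequence was read from RefSeq WBcel235, whose chromosomes hold all regions (0 lie outside). Python 3.11.15, NumPy 2.4.6, pandas 2.3.3 and matplotlib 3.10.9 were used.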

Additional observations from a re-analysis of the deposited data

How the results depend on the processing

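Of the alternatives, 2000 bp upstream gave 4 members with a region past the threshold, against 5.34% of all protein-coding genes, and 4 with a promoter summit, against 4.28%, since the wider window takes in further summits. With 500 bp upstream, 1 member, against 2.42%, kept a promoter summit, because the cye-1 summit lies 590 bp away. Without 1 replicate, from the thresholded list of the other, 0 to 1 members were past the threshold (2.06% to 2.29% of all protein-coding genes) and 0 to 1 had a promoter summit (1.56% to 1.75%), and the ranked lists gave 25 to 27 regions in the member windows in place of 43 and 9 to 10 members with a region. The count past the threshold was 2 members under 6 further settings, beside different shares of all protein-coding genes. These shares were 3.61% with 500 bp upstream, 4.33% with the second thresholded list, 4.29% with scores of 830 or higher in the ranked list, 7.30% with 540 or higher, 4.69% with overlap in place of the summit, and 3.38% without summits nearest to a small RNA gene (chosen after seeing the data). With the second thresholded list the count was 1 for other cyclins and CDK genes and 0 for the Rb and E2F genes, and the cause was not tested. In 200 bp windows TTTGAA was in 16 and TTTCGCGC in 2 of the 43 regions, as longer windows hold more matches. The depth is unknown, so what it limits could not be given.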

Other observations

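A conservative region lay 1759 bp upstream of cya-1, beyond the 1000 bp window (chromosome III, 9110903 to 9111158), and the nearest annotated 5' end was that of cya-1 itself. It had a pooled signal of 77.2 and a score of 1000, with 35.6 in replicate 1 and 40.02 in replicate 2, a mean of 37.8 ± 3.10 (SD, n = 2). The pooled signal, the score and the mean are above those of the cdk-9 promoter region (72.9, 927 and 36.3). The mean is also above the 31.6 of the cye-1 promoter region. The conservative regions 1702 and 1905 bp upstream of cdk-1 share 1 peak of each replicate, 31.4 in replicate 1 and 26.2 in replicate 2, and were nearest to the ncRNA gene T05G5.17. Their pooled signals were 14.9 and 31.7, below the 34.9 reached by a member region under the threshold, although both had a score of 847.

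At cdk-5, which encodes a kinase known from neurons, the second thresholded list held a region with a pooled signal of 55.8 and a score of 978 (chromosome III, 13464763 to 13465018). In the first ranked list the same region had a score of 128, with 24.1 in replicate 1 and 13.3 in replicate 2. These regions were chosen after their values were seen.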
